A study of Mus musculus with 2 samples.

Results

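Dner, a Notch-related surface protein of Purkinje cells, was described together with 9 genes of the Notch pathway in RNA from laser-captured mouse Purkinje cells. The members were named by gene symbol, by a rule that used no values, but with earlier results of these data known. They were the ligands Dner, Jag1 and Dll1, the receptors Notch1, Notch2 and Notch3, and the target genes Hes1, Hes5, Hey1 and Hey2. All 10 matched a row of the gene tables, out of 43346 rows with Ensembl gene identifiers. The material was 2 pools of 30 cells each from adult male B6CASTF1/J mice, a first-generation cross of C57BL/6 and CAST strains, aged 14 months. The labels give no treatment, and both pools carried added spike-in RNA. The pools are numbered as biological replicates but share a donor identifier, so the standard deviation (SD) between them may be technical. They form a single group: there was no contrast between conditions, and no test was made.

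Notch receptors are cut at the membrane when a ligand on a neighbouring cell binds them, and the freed intracellular part enters the nucleus, joins the DNA-binding protein RBPJ and switches on repressor genes of the Hes and Hey families. Jag1 and Dll1 are canonical ligands with a DSL domain. Dner carries EGF-like repeats but lacks that domain, and in the mouse cerebellum it has been described as a Purkinje cell protein that acts on the neighbouring Bergmann glia. Bergmann glia are the astrocytes whose fibres wrap Purkinje cell dendrites. Laser capture of a Purkinje cell body can include their processes, and in such bulk pools fewer cells of a type and less RNA per cell cannot be told apart.

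Sequence before the start site is shown for Dner, the member with the highest level. It is also shown for the pair of target genes among the members whose windows held TGGGAA, the core bound by RBPJ. Capitals mark that core on either strand (TTCCCA when it lies on the opposite strand), and each run reads 5′ to 3′ along the gene. Sequences are from RefSeq on GRCm38.p6, in a table that held 8 of the 10 members, without Hes1 and Hey1. The Dner and Hes5 runs are the 250 bases before the start, at chr1:84696222-84696471 (minus strand) and chr4:154960673-154960922 (plus strand). The Hey2 run is the first 100 bases of the same window, at chr10:30842934-30843033 (minus strand).
Dner: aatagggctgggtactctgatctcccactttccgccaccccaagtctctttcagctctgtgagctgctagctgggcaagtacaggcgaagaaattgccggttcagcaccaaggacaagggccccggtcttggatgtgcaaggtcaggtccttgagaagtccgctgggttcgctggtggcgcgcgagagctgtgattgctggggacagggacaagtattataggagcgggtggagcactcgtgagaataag
Hes5: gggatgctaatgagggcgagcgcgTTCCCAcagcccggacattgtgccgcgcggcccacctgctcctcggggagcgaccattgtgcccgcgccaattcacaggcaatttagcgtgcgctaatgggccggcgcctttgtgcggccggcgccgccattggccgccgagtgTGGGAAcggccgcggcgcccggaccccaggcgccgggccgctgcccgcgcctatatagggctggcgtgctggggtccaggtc
Hey2: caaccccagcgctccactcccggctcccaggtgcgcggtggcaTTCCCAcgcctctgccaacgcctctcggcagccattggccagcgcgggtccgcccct
Hes5 held 2 copies of the core, starting 226 bases before the start on the opposite strand and 82 bases before it on the gene's strand. Hey2 held 1, at 207 bases before the start on the opposite strand. The windows of Dner, Jag1, Dll1, Notch1, Notch2 and Notch3 held none. Of 32851 windows of the same length, 21.6% held the core at least once and 2.77% at least 2 times. These are matches of letters and do not show binding.

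Depth was 31503819 expected counts in the first pool and 28709397 in the second. Expected counts are estimated reads per gene, and TPM corrects them for length and depth, so levels of different genes are compared in TPM. Pairs of values below are for pool 1 and then pool 2. A gene was called detected when its TPM reached 1 in both pools. All 10 Purkinje cell markers and 11 of 13 Bergmann glia and astrocyte markers were detected. The summed TPM of the Purkinje markers was 60225 in pool 1 and 62978 in pool 2, and that of the glial markers 2553 and 4525. Counts of detected markers were 5 of 6 for granule cells, 2 of 5 for molecular layer interneurons, 3 of 6 for oligodendrocytes, 1 of 4 for their precursors and 1 of 6 for microglia. They were 1 of 6 for endothelial cells, 2 of 7 for mural cells, 0 of 3 for choroid plexus and ependyma and 4 of 5 for red blood cells. Red blood cell markers had summed TPM values of 2453 and 16.3, and mural markers 6.48 and 3.17. The mural markers moved both ways, but the 2 detected ones fell: Vtn had 136 and 36 counts and Rgs5 331 and 142. Acta2, Tagln and Myh11 had 24, 10 and 3 counts in pool 1 and 0 in pool 2. Kcnj8 had 1 and 29 counts and Pdgfrb 27 and 36.

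Of the 10 members, 4 were detected in both pools: Dner, Notch2, Jag1 and Hey1. Over all 21474 protein-coding genes 30.3% were detected in this way. The other 6 members were under a TPM of 1 in both pools. Levels spanned from a mean TPM of 1011 for Dner to 0.01 for Hes5, and the members apart from Dner had mean TPM values of 5.69 or lower.

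**Figure D1:**
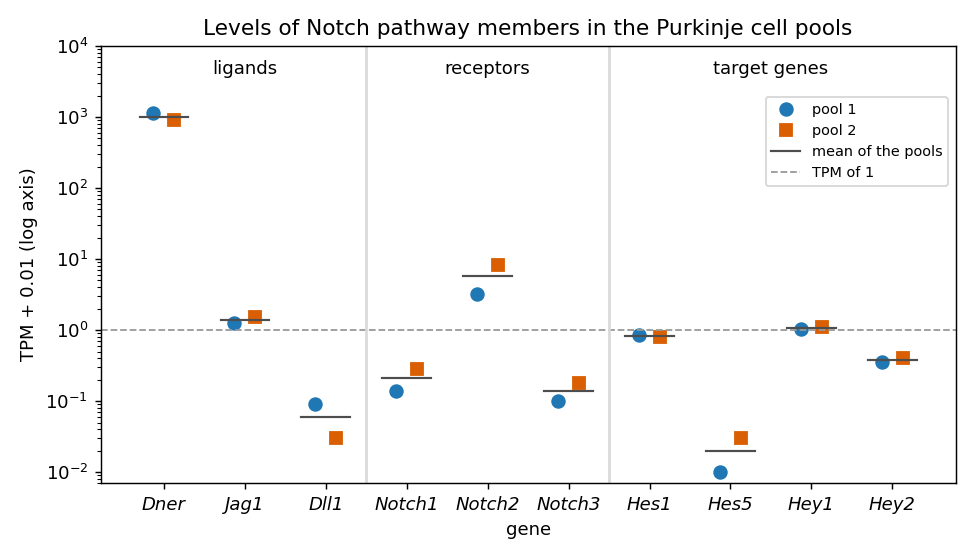
TPM of each member in pool 1 (circles) and pool 2 (squares), with 0.01 added so that a value of 0 can be drawn on the log axis; horizontal bars are the means of the pools (n = 2) and the dashed line marks a TPM of 1. Dner lies near 1011, Notch2 is the highest of the rest, and only Dner, Notch2, Jag1 and Hey1 are above the dashed line in both pools.

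Dner was among the most abundant protein-coding messages of the pools. The gene (ENSMUSG00000036766.8, chromosome 1, 84369839 to 84696221, minus strand, mm10) had TPM values of 1122 and 899, with a mean of 1011 ± 158 (SD, n = 2). That rested on 161003 and 111085 counts, which were 0.512% of the first pool's gene counts (exact 95% interval 0.510 to 0.515) and 0.389% of the second's (0.386 to 0.391). These intervals cover counting error only, and the labels mention no molecular identifiers. By TPM, Dner ranked 88 among 21474 protein-coding genes in pool 1 and 113 in pool 2. Dner-201, the full-length coding transcript of 3632 bases, held 100% of the gene's TPM in pool 1 and 99.99% in pool 2, and Dner-203, a transcript with a retained intron, had 4 counts in each pool.

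The protein-coding genes nearest to Dner in level over both pools were Itpr1, Cox5a and Nedd8, by Euclidean distance of log2(TPM + 1), at distances of 0.08, 0.13 and 0.13. With 2 pools this likeness is mostly one of level. Itpr1, the inositol trisphosphate receptor through which Purkinje cells release stored calcium, had TPM values of 1063 and 882. Dner had 1.06 times the TPM of Itpr1 in pool 1 and 1.02 times in pool 2. Against Calb1, which encodes the calcium buffer calbindin, the Dner level was 0.465 times in pool 1 and 0.436 times in pool 2.

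Jag1, a canonical ligand that astrocytes and vessel cells can carry, was low. The gene (ENSMUSG00000027276.7, chromosome 2, 137081456 to 137116644) had TPM values of 1.24 and 1.52, with a mean of 1.38 ± 0.198 (SD, n = 2), from 277 and 294 counts. All of its reads were assigned to the coding transcript Jag1-201. The Dner TPM was 905 times that of Jag1 in pool 1 and 591 times in pool 2. Dll1, the delta-like ligand of neural progenitors (ENSMUSG00000014773.9, chromosome 17, 15367354 to 15376872), had 3 counts in each pool. The Dll1 TPM of 0.08 in pool 1 and 0.02 in pool 2 differed because 1.88 of the pool 1 counts were assigned to a short transcript of 716 bases, so those values do not show a difference between the pools.

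Notch2 was the highest of the receptors in both pools, by a margin that depended on the estimate of Notch1. The gene (ENSMUSG00000027878.10, chromosome 3, 98013527 to 98150361, plus strand) had TPM values of 3.24 and 8.14, from 1371 and 2963 counts, and a mean of 5.69 ± 3.47 (SD, n = 2). Notch1, the receptor best known for keeping neural progenitors undifferentiated (ENSMUSG00000026923.11, chromosome 2, 26457903 to 26516663), had 0.13 and 0.27 from 47.9 and 87.4 counts. Notch3, which in brain is known from the mural cells of vessels (ENSMUSG00000038146.7, chromosome 17, 32120820 to 32166852), had 0.09 and 0.17 from 29 and 46.5 counts. Each receptor was higher in pool 2 in TPM, and the Notch2 values did not overlap those of the other receptors.

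Summed over Notch1, Notch2 and Notch3, the TPM was 3.46 in pool 1 and 8.58 in pool 2, of which Notch2 held 93.6% and 94.9%. Notch2 exceeded Notch1 by 4.78 ± 0.19 on the log2 TPM scale and Notch3 by 5.38 ± 0.29 (SD, n = 2). In the posterior mean TPM that the authors also deposited, Notch1 was higher, at 1.48 and 1.85, while Notch2 had 3.20 and 8.02. On that scale Notch2 held 67.1% and 79.9% of the receptor sum, and exceeded Notch1 by 1.61 ± 0.71 (log2, SD, n = 2). The expected counts of Notch1 were all assigned to Notch1-201, of 11 transcripts listed for the gene. Dner exceeded the summed receptors 324-fold in pool 1 and 105-fold in pool 2, a mean log2 TPM ratio of 7.53 ± 1.15 (SD, n = 2). Notch4, the endothelial receptor, had 4 counts in each pool.

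The labels do not say whether strand was used in counting. Expected counts of Notch1 in both pools and of Notch3 in pool 2 were fractional, as when a read is divided between genes. So were those of the genes that overlap them on the opposite strand. The counting intervals given below for Notch1 and Notch3 do not cover such a division. The levels of Notch1 and Notch3 may include reads from the genes opposite them, which was not tested. Dll1 and its neighbour had whole counts. A930024N18Rik, opposite Dll1, had 20 counts in pool 1 and 0 in pool 2, beside the 3 counts of Dll1 in each. Gm13568 and 0610009E02Rik, which overlap the end of Notch1 on the opposite strand, had 31.03 and 71.99 counts, and 9.05 and 28.62 counts. Gm17276, antisense to Notch3, had 0 and 21.5 counts. The M4 rows that overlap Dner within its span on the same strand, Gm37959 and Gm37925, had at most 56 counts in a pool.

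The target genes were near or under the detection threshold. Hey1 (ENSMUSG00000040289.4, chromosome 3, 8663359 to 8667256), a repressor known from vessels and glia, had TPM values of 1.04 and 1.11, from 98 and 90 counts. Hes1 (ENSMUSG00000022528.7, chromosome 16, 30064384 to 30067796), the classical Notch-induced repressor, had 0.85 and 0.79 from 47 and 38 counts. Hey2 (ENSMUSG00000019789.8, chromosome 10, 30832359 to 30842801), a close relative of Hey1, had 0.35 and 0.40 from 35 and 34 counts. These target genes kept the order Hey1, Hes1 and Hey2 in both pools.

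Hes5, a Notch-induced repressor that is high in neural progenitors and whose sequence before the start site holds 2 copies of the RBPJ core, was hardly measured. The gene (ENSMUSG00000048001.7, chromosome 4, 154960923 to 154962371) had 0 counts in pool 1 and 1 in pool 2. That single count was a TPM of 0.02. In pool 1 the limit that a count of 0 allows, 3 counts, equals a TPM of 0.104 at the effective length of 712.5 bases listed for the gene there. The summed TPM of Hes1, Hes5, Hey1 and Hey2 was 2.24 in pool 1 and 2.32 in pool 2. The Notch2 TPM was 1.45 times that sum in pool 1 and 3.51 times in pool 2.

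In order of mean TPM the members were Dner, Notch2, Jag1, Hey1, Hes1, Hey2, Notch1, Notch3, Dll1 and Hes5. Neighbours in that order were separated by more than the larger of their SDs, apart from Notch1 and Notch3 and apart from Dll1 and Hes5. Both of those pairs also overlapped between pools. By posterior mean TPM, Notch1 stood above Jag1 and next below Notch2, at a mean of 1.67 against 1.39. On that scale Dll1 at 0.27 and Hes5 at 0.14 stood above Notch3 at 0.13. These changes of place went against the counts. Notch1 had 47.9 and 87.4 counts, against 277 and 294 for Jag1. Dll1 and Hes5 had at most 3 counts in a pool, against 29 and 46.5 for Notch3.

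The pools were then compared by counts after TMM scaling (trimmed mean of M values, which sets libraries to a common level). Of the members, 8 had at least 10 counts in total, and Notch2 was the only member of these past 2-fold, higher in pool 2. No member was past 2-fold higher in pool 1. Of 14495 genes with at least 10 counts, 16.5% were past 2-fold higher in pool 2 and 15.6% past 2-fold higher in pool 1, so 1 of 8 is close to the background. With 1 library on each side these ratios have no replicate check.

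The Notch2 ratio of pool 2 over pool 1 was 2.08 (exact 95% interval 1.95 to 2.21, counting error only), or 1.05 on the log2 scale. Among the 2598 genes with 1000 to 10000 counts in total, as Notch2 has, 3.46% were past 2-fold higher in pool 2 and the SD of the log2 ratio was 0.55. The glial markers had a median log2 ratio of 0.54 and ran from -0.80 to 1.02, so that Notch2 lay just above the highest of them, Sox9. Of the 13 glial markers, Slc1a3, Slc1a2, Gja1, Gdf10, Aqp4, S100b, Fabp7, Aldh1l1, Sox9 and Timp4 were higher in pool 2, and Hopx, Gfap and Tnc were lower. None was at 0 in a pool. The part of glial content in the Notch2 ratio was not tested. With libraries scaled to their spike-in totals the Notch2 log2 ratio was 0.28 and no longer past 2-fold, while the median of all genes moved from -0.004 to -0.77, that of the glial markers to -0.23, and 5 of the 13 were then higher in pool 2.

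Dner moved the other way. The log2 count ratio was -0.59 (ratio 0.662, exact 95% interval 0.657 to 0.668), against a median of -0.27 and a range of -0.54 to 0.10 for the Purkinje markers. Dner thus lay just below the lowest of those, Itpr1. The SD of the log2 ratio was 0.66 over the 595 genes with at least 10000 counts. Those genes include red blood cell markers such as Hbb-bs and Hba-a1, at -7.08 and -7.52, which widen that SD. The spread without them was not computed, so the SD does not show whether the Dner ratio was ordinary for its depth. Under spike-in totals the Dner log2 ratio was -1.37, against a median of -1.04 for the Purkinje markers.

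The remaining ratios had wide counting intervals. Notch1 had a log2 ratio of 0.80 (0.27 to 1.34) and Notch3 0.64 (-0.06 to 1.36). Jag1 had 0.03 (-0.21 to 0.27), Hey2 -0.10 (-0.83 to 0.62), Hey1 -0.18 (-0.61 to 0.25) and Hes1 -0.37 (-1.02 to 0.28). The intervals of Jag1, Notch3, Hey1, Hey2 and Hes1 included 0. Under spike-in totals the Notch1 ratio fell to 0.029, and the Notch3 and Jag1 ratios turned to -0.13 and -0.74. Under total counts those of Hey1 and Hey2 turned to 0.014 and 0.095. Over the 8 members the median log2 ratio was -0.04, against -0.004 for all genes tested, with 4 higher and 4 lower in pool 2.

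**Figure D2:**
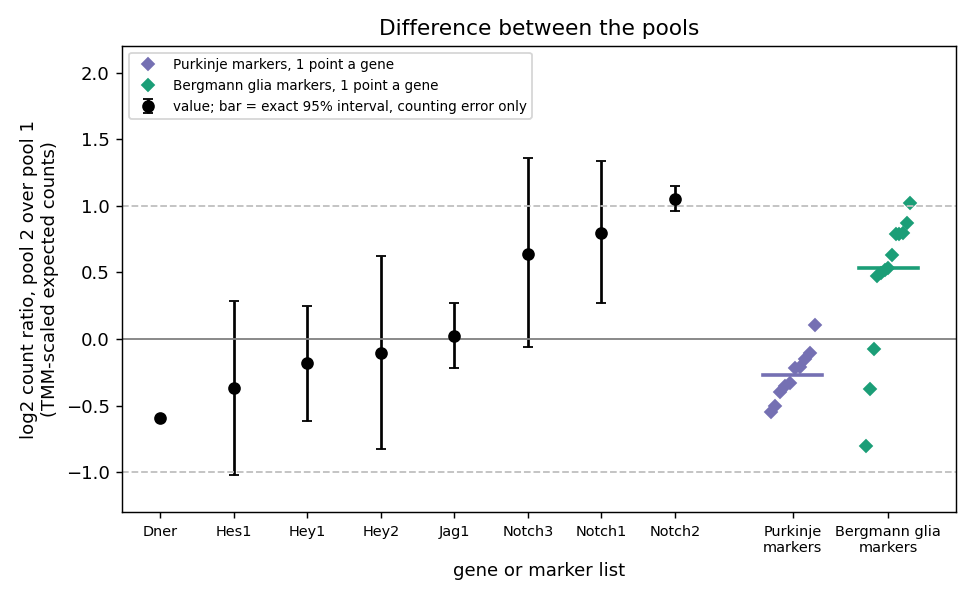
Log2 ratio of TMM-scaled expected counts, pool 2 over pool 1, for the 8 members with at least 10 counts (black points; bars are exact 95% intervals for counting error only) and for Purkinje and Bergmann glia markers (diamonds, 1 a gene; lines are medians). Dashed lines mark 2-fold; Notch2 at 1.05 is the only member past them, and Dner at -0.59 lies below the Purkinje marker median of -0.27.

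Of 55 further Notch pathway genes, 22 (40.0%) were detected in both pools, beside 30.3% of protein-coding genes. A further 29 were under a TPM of 1 in both pools and 4 were above it in 1 pool only. Of 8 ligands and ligand-like proteins, Cntn1 was detected, a neuronal and glial adhesion protein reported as a Notch ligand, with TPM values of 39.3 and 35.2. Dll4 had 1 count in pool 1 and 47 in pool 2. Among the 2751 genes with 30 to 100 counts in total, as Dll4 has, 24.4% were past 2-fold higher in pool 2.

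Genes for receptor cleavage were detected in 7 of 10 cases. Psenen, a subunit of gamma-secretase, had TPM values of 147 and 225. Adam10, the protease that makes the first cut after ligand binding, had 43.3 and 33.9. Psen2, a catalytic subunit of gamma-secretase, had 3.31 and 4.82. Furin, which cuts the receptor on its way to the surface, had 1.55 and 2.31, the gamma-secretase subunit Ncstn 1.97 and 1.62, and Aph1b 2.48 and 3.86. Aph1b and Aph1c are near-identical copies, so the split of reads between them is uncertain.

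Of 5 genes for glycosylation of receptors, Poglut1 and Rfng were detected. Poglut1, which adds glucose to EGF-like repeats, had 2.05 in pool 1 and 6.04 in pool 2, and Rfng, a fringe enzyme, had 1.83 and 3.64. Of 4 ligases for ligand endocytosis, Mib1 was detected, with 17.9 and 23.5. Of 9 genes for receptor turnover and deltex proteins, 5 were detected. Fbxw7, which marks the intracellular Notch fragment for breakdown, had 30.9 and 25.1, the ligase Itch 6.11 and 3.89, and the endocytic adaptor Numb 2.29 and 2.69. The deltex genes Dtx1 and Dtx3 had 3.82 and 5.53, and 5.47 and 5.81. Deltex proteins are ubiquitin ligases, and Dtx1 binds the intracellular part of Notch.

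The nuclear partners of Notch were low. Rbpj itself had TPM values of 0.52 and 0.34, from 115 and 63 counts, and among the 6 genes of that complex the acetyltransferase Kat2b was detected, with 2.63 and 3.17. Of 6 corepressor genes 4 were detected. Ncor1 had 13.1 and 11.6, Hdac1 4.11 and 5.07, Ctbp1 2.91 and 4.74 and Cir1 4.37 and 2.10. Among the 6 further genes listed as targets Hes3 was detected, at 6.16 and 8.48 from 433 and 513 counts. Whether Notch induces Hes3 was not tested. Hes3 is a Hes family repressor described in rat as specific to Purkinje cells. Its TPM was above that of each of Hes1, Hes5, Hey1 and Hey2 in both pools. Nrarp, a feedback inhibitor induced by Notch, had 0 counts in both pools.

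**Figure D3:**
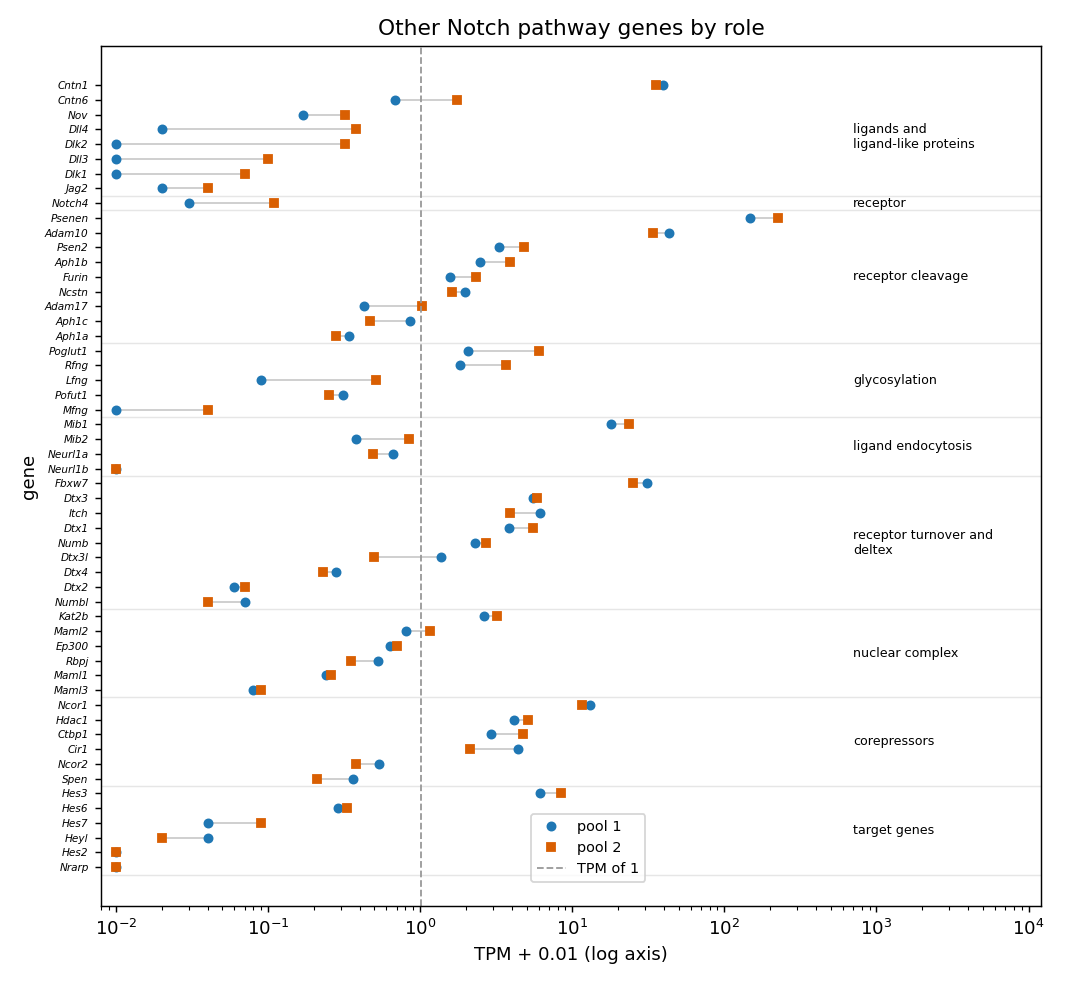
TPM of the further Notch pathway genes, 1 of them not drawn, in pool 1 (circles) and pool 2 (squares), grouped by role, with 0.01 added on the log axis; the dashed line marks a TPM of 1 and grey lines join the pools. Psenen reaches 147 and 225, Cntn1, Adam10 and Fbxw7 lie above 25 in both pools, and most nuclear complex and target genes lie left of the dashed line.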

How the data were processed

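Total RNA of 2 pools of 30 laser-captured Purkinje cells was made into complementary DNA with a SMARTer Ultra Low kit, per the labels. The authors quantified each library on mm10 with GENCODE M4, per the text deposited with each sample; no source used here names the aligner or the quantifier. As the file headers show, the deposited tables hold expected counts, TPM, FPKM and posterior mean TPM per gene, and the percent of a gene's TPM per transcript. FPKM and posterior means served as alternatives. Bias towards the C57BL/6 allele was not tested.

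GENCODE M21, also on mm10, gave symbols and coordinates (42462 of 43346 identifiers matched). A set of 26248 rows identified by numbers alone, with no gene, was not used; these held 0.000412% and 0.000194% of counts. Expected counts were rounded and scaled by TMM (edgeR 4.0.16) or size factors (DESeq2 1.42.0), over genes with at least 10 counts; no p-value was computed. Intervals are exact binomial (scipy 1.17.1). The ratio step was checked on simulated counts. Detection meant a TPM of at least 1.

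The genes to be named were all members, every pathway gene detected in both pools, Notch4, Nrarp, all glial markers, the 2 highest markers of each other list and the 3 genes nearest to Dner. The other marker lists are mostly given by counts and sums instead. Of the pathway genes, 1 that is counted in its list is not reported here. Genes named outside this rule (Calb1, Dll4, Rbpj, Aph1c, Acta2, Tagln, Myh11, Kcnj8, Pdgfrb and the genes overlapping Dner, Dll1, Notch1 and Notch3) were chosen after their values were seen. Members and lists were chosen with earlier results of these data known. Nov was matched through its RefSeq synonym.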

Additional observations from a re-analysis of the deposited data

How the results depend on the processing

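Leaving out either pool gave 4 detected members each time, 23 to 25 further pathway genes, a Dner TPM of 899 to 1122, a log2 ratio of Dner to the summed receptors of 6.71 to 8.34, and a median share of 100% for the dominant transcript. A TPM threshold of 0.1 gave 7 members and 39 further genes, and a threshold of 5 gave 1 and 8. The share of all protein-coding genes was not computed at these thresholds or by posterior mean TPM. The counts at those settings therefore show only how the number depends on the setting. In FPKM, which is scaled differently, the Dner level was 1271. Without correction for length the log2 ratio of Dner to the receptors was 5.98. Under spike-in totals 2 members, Dner and Hes1, were past 2-fold, both higher in pool 1, and the median log2 count ratio of the members was -0.81. The median of all genes under that scaling was -0.77. The share of all genes past 2-fold was not computed for it, so that count is not a result about the members. The median of the members changed sign to 0.16 under total counts, 0.027 with a minimum of 100 counts, 0.077 for log2(TPM + 1) and 0.21 for log2(TPM + 0.1). Its distance to the median of all genes was -0.033 under each count scaling. Each count scaling shifts all genes equally, so that distance is fixed by arithmetic and does not bear on stability. Posterior means raised Notch1 to 1.67 and gave 6 detected members. They also gave Hes5 a TPM of 0.12 in pool 1, where it had 0 counts, so they can stand above what was counted. The cause of the rise in Notch1 was not tested. Of 29 further alternatives for single members, apart from leaving out a pool, 18 stayed within the SD between pools and 11 moved beyond it. With 2 pools, a mean without either pool lies within that SD by arithmetic, so those ranges do not bear on stability. Ratios between pools could not be recomputed without a pool. No paired analysis was possible because the pools form a single group. Dll1 and Hes5 rested on 3 counts or fewer in each pool.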
